A study of Mus musculus with 2 samples.

Results

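Mitochondrial ribosomal proteins are encoded in the nucleus, made in the cytosol and imported into mitochondria, where they join ribosomal RNA of the mitochondrial genome. The finished mitoribosome has a large subunit, which forms peptide bonds and releases the new chain at the inner membrane, and a small subunit, which binds and decodes the mRNA. It makes only the few respiratory chain subunits that mitochondrial DNA encodes, so oxidative phosphorylation depends on its output. Many of its proteins descend from bacterial ribosomal proteins, and the others were added in the course of mitochondrial evolution.

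The genes described here are those whose symbol in the authors' deposited table is Mrpl (large subunit) or Mrps (small subunit) followed by a number. The rule found 78 genes of 26891 named genes with a probe, 49 of the large and 29 of the small subunit. They were measured in a murine glioblastoma stem cell line, grown as neurospheres in serum-free medium with EGF and bFGF, which came from tumours induced de novo with the Sleeping Beauty (SB) transposon. The control cells carried a lentiviral non-target short hairpin RNA, and the knockdown cells a lentiviral hairpin against Stat5b, a transcription factor that cytokine and growth factor receptors activate. Both kinds of cells were stably transduced, and 1 single-colour Agilent array was made of each, so no difference could be set against the spread between cultures and no test was possible. The comparison asked how suppressing Stat5b alters transcript levels.

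The brighter Stat5b probe had a processed signal of 1991 in the control and 498 in the knockdown cells, and a dimmer probe had 14.7 and 7.49, the latter not well above background. Of 10 fixed markers of neural or glioma stem cells, 6 were well above background on each array, among them Nes, Cd44 and Vim, while Sox2, Olig1 and Fabp7 were not on either. Of 9 microglia and immune markers 5 were well above background on both arrays (Ptprc, Itgam, Cd68, Csf1r and C1qb), with a summed signal of 11425 and 12598. Their part in the results below was not tested. The summed signal of 4 fibroblast markers was 955 in control and 2523 in knockdown cells, that of 6 endothelial and mural markers 188 and 230, and that of 4 neuronal markers 4267 and 4947, and their part was likewise not tested. Single markers went both ways within these lists: Col1a2 (462 and 1728) and Pdgfrb (16.6 and 76.1) were higher in the knockdown, and Lum (76.8 and 3.21, the latter not well above background) and Cdh5 (84.7 and 50.4) lower. In such bulk RNA, fewer cells that express a gene and less RNA per cell cannot be told apart.

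Taken as a group, the mitoribosomal genes were at nearly the same level in both cultures, and 2 large-subunit genes departed from that. Differences are given as log2 of knockdown over control after each array was scaled to its own 75th percentile. The median over the 78 genes was -0.05, against 0.01 over the 16354 named genes measured on both arrays. Below 0 lay 44 of the 78 genes, where 48.9% of all measured genes lay below 0. Past 2-fold in either direction were 2 of 78, both lower, against 6.07% of all measured genes (2.41% lower, 3.66% higher). Past 1.5-fold were 4 of 78 (5.13%), 3 lower and 1 higher, against 19.5% (8.44% lower, 11.0% higher). Of the 78 genes 77 were at or above the 75th percentile of signal on at least 1 array, and among all genes of that brightness 17.4% passed 1.5-fold and 4.78% passed 2-fold. The genes past 2-fold were Mrpl44 and Mrpl1, the latter by a small margin.

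All 78 genes had at least 1 probe well above background on both arrays, so none was lost to the filter on low values. Of their 122 probes 116 were measured on both arrays, 5 were dim on both, and 1, a probe of Mrpl48, was measurable in the control only (28.8 against 15.4), a difference of at least 1.87-fold. Values of a gene are means over its measured probes. Between probes of the same gene the log2 difference had an SD of 0.31 over 7233 genes, and of 0.18 over the 30 mitoribosomal genes with several measured probes. The first of these was taken as the yardstick, since no culture was repeated. Within it lay 62 of the 78 genes, against 56.7% of all measured genes. The error printed as ± was derived from the scanner software's error of each spot, taken as independent between arrays and between probes. It was 0.20 for a typical gene with 1 probe and does not cover differences between cultures.

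The 2 oligonucleotides below each carry one of the 2 values past 2-fold, printed 5′ to 3′ as the array's table gives them. Signals in control and knockdown cells were 522 and 176 for the first, and 1061 and 524 for the second.
Mrpl44: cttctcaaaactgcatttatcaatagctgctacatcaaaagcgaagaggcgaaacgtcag
Mrpl1: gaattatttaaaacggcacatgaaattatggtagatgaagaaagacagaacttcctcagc

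Mrpl44 encodes a large-subunit protein with a fold related to ribonuclease III that lies near the polypeptide exit, and mutations of the human gene cause cardiomyopathy with a defect of mitochondrial translation. A second, brighter Mrpl44 probe gave 2627 and 848. The probes differed by -1.57 and -1.63, with a mean of -1.60 ± 0.14, or 33.0% of control. Both oligonucleotides thus put Mrpl44 about equally far below the control, at 3.03-fold lower.

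Mrpl1 encodes the protein of the L1 stalk, a mobile arm of the large subunit that guides spent tRNA out of the ribosome. Its second probe, listed under another RefSeq transcript, gave 5750 and 2837. The difference was -1.02 for each of the 2 probes and -1.02 ± 0.14 for the gene, or 49.3% of control. With normexp background correction it was -0.93, short of 2-fold. The next gene in size, Mrpl37, a large-subunit protein without a bacterial counterpart, was at -0.61 ± 0.20 with signals of 8075 and 5296. Mrps34, a small-subunit protein that is needed for the stability of that subunit, was the only one of the 78 past 1.5-fold upward, at 0.59 ± 0.20 with signals of 10084 and 15239.

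Mrpl37 and Mrps34 rest on 1 probe each, and both probes are among the last 64 rows of 384. Of measured named probes there 22.9% were past 1.5-fold, against 19.5% in the other rows, and the part of position in these values was not tested. Without those rows 69 of the 78 genes were measured, and the 2 past 1.5-fold were Mrpl44 and Mrpl1. Mrps34 passed 1.5-fold by a small margin and missed it with median scaling, at 0.58. Next inside the threshold on the low side was Mrps36, at -0.45, and on the high side Mrpl36, at 0.45. Mrpl44 and Mrpl1 were the lowest of the 78 genes, and Mrpl37 came next at -0.61. The SD over the mitoribosomal genes was 0.31, against 0.52 over all measured genes. Without Mrpl44 and Mrpl1 it was 0.23, but leaving out the extremes lowers an SD in any case.

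**Figure D1:**
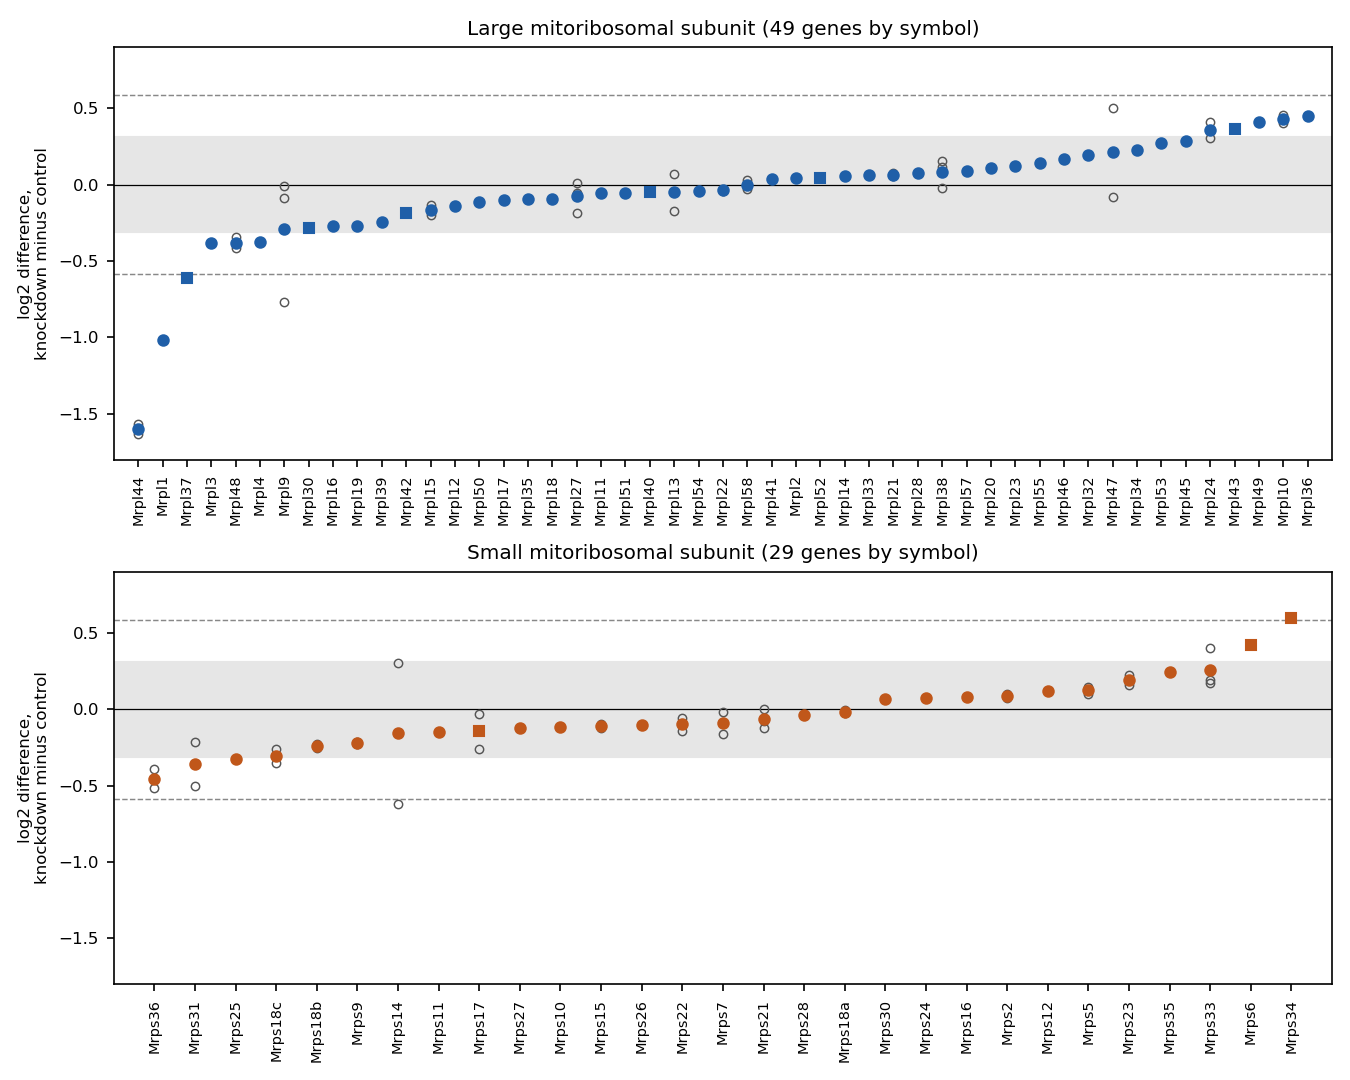
Log2 difference (knockdown minus control, vertical axis) of each mitoribosomal gene, with the 49 large-subunit genes above and the 29 small-subunit genes below, ordered by value. Filled marks are gene values (squares for genes measured in the last 64 rows alone), open circles single probes of genes with several, the grey band the SD of 0.31 between probes of 1 gene, and dashed lines 1.5-fold. Mrpl44 and Mrpl1 are the lowest, at -1.60 and -1.02.

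The medians of the large and the small subunit were close. The median of the large subunit was -0.04, with 23 of 49 genes above 0 and a range from -1.60 to 0.45. The median of the small subunit was -0.09, with 11 of 29 above 0 and a range from -0.45 to 0.59. The medians differed by 0.05, large minus small, and the means by -0.02, where the SD over genes was 0.35 within the large and 0.23 within the small subunit. Past 1.5-fold were 3 large-subunit genes (6.12%), each lower, and 1 small-subunit gene (3.45%), which was higher, against 19.5% of all measured genes. The symbols do not follow the assembled particle throughout: the products of Mrps30 and Mrps18a sit in the large subunit of the mammalian mitoribosome, and that of Mrps36 belongs to the 2-oxoglutarate dehydrogenase complex. With the first pair moved and Mrps36 left out, the medians were -0.02 for 51 large-subunit genes and -0.10 for 26 small-subunit genes. Both Mrps30, at 0.07, and Mrps18a, at -0.02, were near 0.

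Grouped by descent, the medians were also close. The 44 genes with a bacterial homolog had a median of -0.06, with 19 above 0 and 1 past 1.5-fold (2.27%), Mrpl1. The 29 genes of proteins particular to mitochondria had a median of -0.0022, with 14 above 0. Past 1.5-fold were 3 of these (10.3%), Mrpl44, Mrpl37 and Mrps34. Both shares were below the 19.5% of all measured genes. The remaining 5 genes were not classed.

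**Figure D2:**
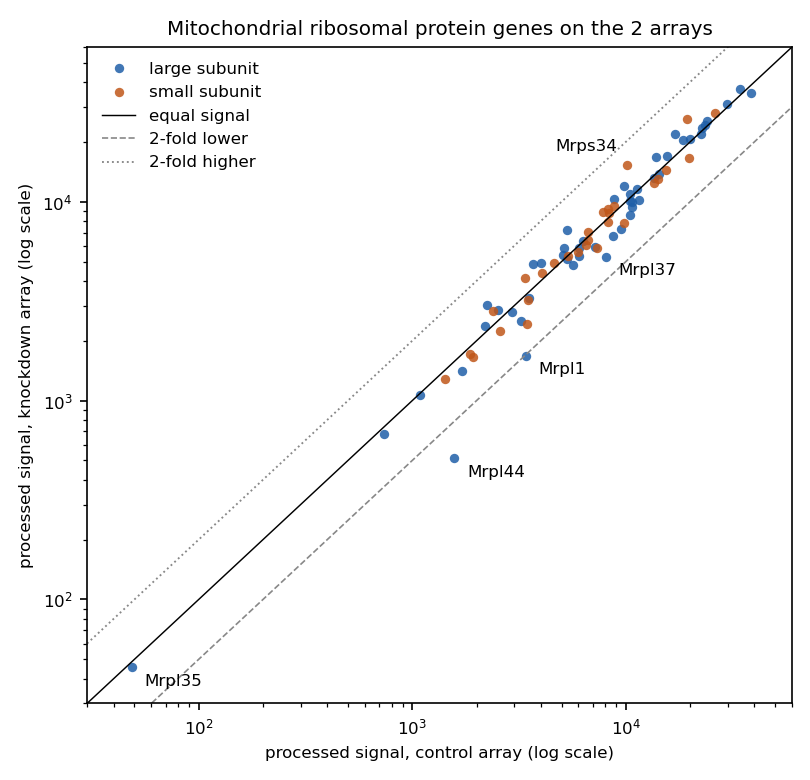
Processed signal of each mitoribosomal gene on the control array (horizontal) and the knockdown array (vertical), both on log scales in the scanner's arbitrary units, as the mean over its measured probes. The solid line marks equal signal and the broken lines 2-fold differences. Most genes follow the solid line, and Mrpl44 (1575 and 512) lies below the 2-fold line.

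In the large subunit, 4 genes of proteins near the peptidyl transferase centre lay between -0.38 and 0.04. Mrpl2, whose bacterial counterpart is essential for subunit joining and peptide bond formation, had signals of 22823 and 23535 and a difference of 0.04. Mrpl3 had signals of 8748 and 6708, a difference of -0.38. Mrpl16, which helps to place the tRNA, was at -0.27 (7145 and 5928). Mrpl27, whose tail reaches towards the tRNA ends, was at -0.08 with 4 probes between -0.19 and 0.01. Of these, Mrpl3 lay outside the spread between probes.

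Genes of the second stalk, which recruits translation factors, went both ways. Mrpl10, its base, was at 0.43, with both probes between 0.40 and 0.46 and signals of 2723 and 3738 at the brighter one. Mrpl11 was at -0.06 (14347 and 13790). Mrpl12, the flexible stalk protein that contacts elongation factors, was at -0.14 (38760 and 35206). Mrpl10 was among the 5 highest of the large subunit, where Mrpl1 was the second lowest.

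Around the exit of the nascent chain, members went both ways. Mrpl4, whose bacterial counterpart lines the exit tunnel, had signals of 9462 and 7298 and a difference of -0.38. Mrpl22 was at -0.04 with both probes and Mrpl23 at 0.12. Mrpl24 was at 0.36, with a bright probe at 0.30 (7981 and 9845) and a dim one at 0.41 (23.6 and 31.4). The bright probe alone lay within the spread between probes. Mrpl45, which holds the ribosome to the inner membrane, was at 0.28 (9845 and 11984), while Mrpl39 was at -0.25 (5680 and 4797). Mrpl44, of the same region, was at -1.60, lower than each of the genes named with it.

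Genes of the central protuberance, the crest of the large subunit that faces the small one, were mixed. Mrpl18 was at -0.09, Mrpl38 at 0.08 and Mrpl40 at -0.05. Mrpl46 was at 0.17 and Mrpl48 at -0.38, the latter with 3 measured probes between -0.42 and -0.35. Mrpl48 was thus the one of these 5 outside the spread between probes, and its probes stood together.

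Of the other large-subunit genes, those above 0.31, the SD between probes, were Mrpl36 (5294 and 7243), at 0.45, Mrpl49 (3679 and 4889), at 0.41, and Mrpl43 (17079 and 21991), at 0.36. Mrpl36 encodes a small zinc-binding protein that joins late in assembly. Mrpl53 (0.27) and Mrpl34 (0.23) followed within that spread, and on the low side Mrpl30 (-0.28), Mrpl19 (-0.27) and Mrpl42 (-0.18). Mrpl58, the peptidyl-tRNA hydrolase also called Ict1 that frees stalled ribosomes, was at -0.0022. Mrpl35 was the gene of the dimmest signals, at 48.6 and 45.6, and differed by -0.09. The 2 probes of Mrpl47 disagreed: the bright one gave 5806 and 5499 (-0.08), and a dim one gave 39.6 and 56.1 (0.50). Mrpl9 had probes at -0.01, -0.09 and -0.77, the last from signals of 31.5 and 18.5. In both genes the departing value came from a dim probe, and the bright probes were near 0.

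In the small subunit, the genes named here for the decoding region and the mRNA channel were close to the control. Mrps12, the protein of the decoding centre whose bacterial form carries streptomycin resistance, was at 0.12 (8781 and 9527). Mrps5 was at 0.12, with 2 measured probes at 0.10 and 0.14, and Mrps24, at the mRNA entrance, was at 0.07 (6661 and 7017). Mrps2 was at 0.09. These 4 genes all lay between 0.07 and 0.12, but they too were grouped after their values were seen. Their narrow range does not stand for these regions as a whole.

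Of the head and the platform, most of the genes named in this paragraph were slightly below the control, by no more than the spread between probes. They were grouped after their values were seen and do not stand for these regions as a whole. Mrps7 was at -0.09, Mrps9 at -0.22 with probes at -0.23 and -0.22, and Mrps10 at -0.12. Mrps11 was at -0.15 and Mrps18c at -0.31. Mrps6, of the platform, went the other way at 0.42 (19395 and 25967), from a probe in the last 64 rows. Mrps14 had probes of opposite sign, a bright one with 6666 and 8224 (0.30) and a dim one with 58.0 and 37.8 (-0.62), so its mean of -0.16 stands for neither.

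Among small-subunit proteins without a bacterial counterpart, Mrps31 was at -0.36 and Mrps25 at -0.33 (9835 and 7839). The bright Mrps31 probe gave -0.21 (5083 and 4390), within the spread between probes, and a dim one -0.50 (90.5 and 63.9). Mrps33 was at 0.25, with 3 probes from 0.17 to 0.40, and Mrps35 at 0.24 (2381 and 2824). Mrps22 was at -0.10, Mrps23 at 0.19, Mrps26 at -0.10 and Mrps27, a protein with pentatricopeptide repeats, at -0.12. Mrps36, the lowest of the small-subunit symbols, had probes at -0.52 and -0.39, the brighter with signals of 6852 and 4795. Of 30 mitoribosomal genes with several measured probes, 7 had probes of opposite sign. The sign of a small difference may thus not be shared by a gene's own probes. The same share over all genes was not counted.

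Of the 6 genes in a list of mitoribosomal proteins with other names, Mrpl58 (Ict1) also follows the rule and is given above. Of the others, Dap3 was at 0.10, Chchd1 at 0.08, Aurkaip1 at 0.12, Ptcd3 at -0.08 and Gadd45gip1 at -0.23. No member of this list passed 1.5-fold.

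Genes that build and run the mitoribosome also had medians near 0. In each list of this paragraph the share past 1.5-fold was below the 19.5% of all measured genes. Of 27 genes of mitoribosome assembly and rRNA modification, 1 was past 1.5-fold lower and 1 higher (7.41%), with a median of -0.11. Grsf1, an RNA-binding protein of mitochondrial RNA granules, was at -0.82 (1952 and 1110). Mterf4, a partner of the rRNA methyltransferase Nsun4, was at 0.80, but its 3 probes ranged from -0.01 to 2.38. The brightest of them gave -0.0059, which is also the value over brighter probes alone. Of 18 translation factors, 1 was past 1.5-fold (5.56%), Mtrf1, a release factor homolog, at -0.91 (355 and 188), with a median of -0.08. Of 17 mitochondrial aminoacyl-tRNA synthetases, 1 was past 1.5-fold (5.88%), Hars2 at -0.60, with a median of 0.01.

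Genes that transcribe and maintain mitochondrial DNA, the source of the ribosomal RNA, included Tfam and Tfb2m, both lower in the knockdown cells. Of 15 such genes 2 were past 1.5-fold lower and 1 higher (20.0%, near the 19.5% of all measured genes), with a median of -0.09. Tfam, which packages and activates mitochondrial DNA, had signals of 1090 and 654 and a difference of -0.75, with probes at -0.69 and -0.82. Tfb2m, the initiation factor of mitochondrial transcription, had 1125 and 654, at -0.71, with probes at -0.59 and -0.82. Polrmt, the mitochondrial RNA polymerase, was at 0.16. Primpol was at 0.64 from dim signals (43.2 and 68.5).

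The regulators of mitochondrial biogenesis had a median of -0.28, with 7 of 11 below 0 and 2 past 1.5-fold lower (18.2%, near the 19.5% of all measured genes). The median was -0.12 with normexp background correction, -0.11 without the filter on dim probes, -0.07 with brighter probes and -0.10 with the brightest probe per gene. Nrf1, a transcription factor of many mitochondrial genes, was at -0.63, with 3 probes between -0.84 and -0.24. Its brightest probe alone gave -0.24, short of 1.5-fold. Tfam, given above, is the other. Gabpa, the ETS factor that drives many genes of this kind, was at -0.40, and its brightest probe was at -0.07. Yy1 was at 0.37 and the coactivator Ppargc1b at 0.41, while Ppargc1a was at -0.28.

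The mitoribosomal median of -0.05 was close to that of the cytosolic ribosome and below that of the respiratory chain. The 83 measured genes of the cytosolic ribosome had a median of -0.07, with 21 above 0. Past 1.5-fold were 2 (2.41%), Rps26 at -0.79 and Rpl26 at -0.72. The 79 measured respiratory chain genes had a median of 0.20, with 64 above 0. Past 1.5-fold were 3 (3.80%), Ndufv2 at -0.70, Atp5d at -0.60 and Ndufs3 at 0.59. Both shares were below the 19.5% of all measured genes. Among the mitoribosomal genes 34 of 78 were above 0. The SD over genes was 0.17 for the cytosolic ribosome, 0.24 for the respiratory chain and 0.31 for the mitoribosome. All these values come from the same 2 arrays, so they are set side by side without a test.

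**Figure D3:**
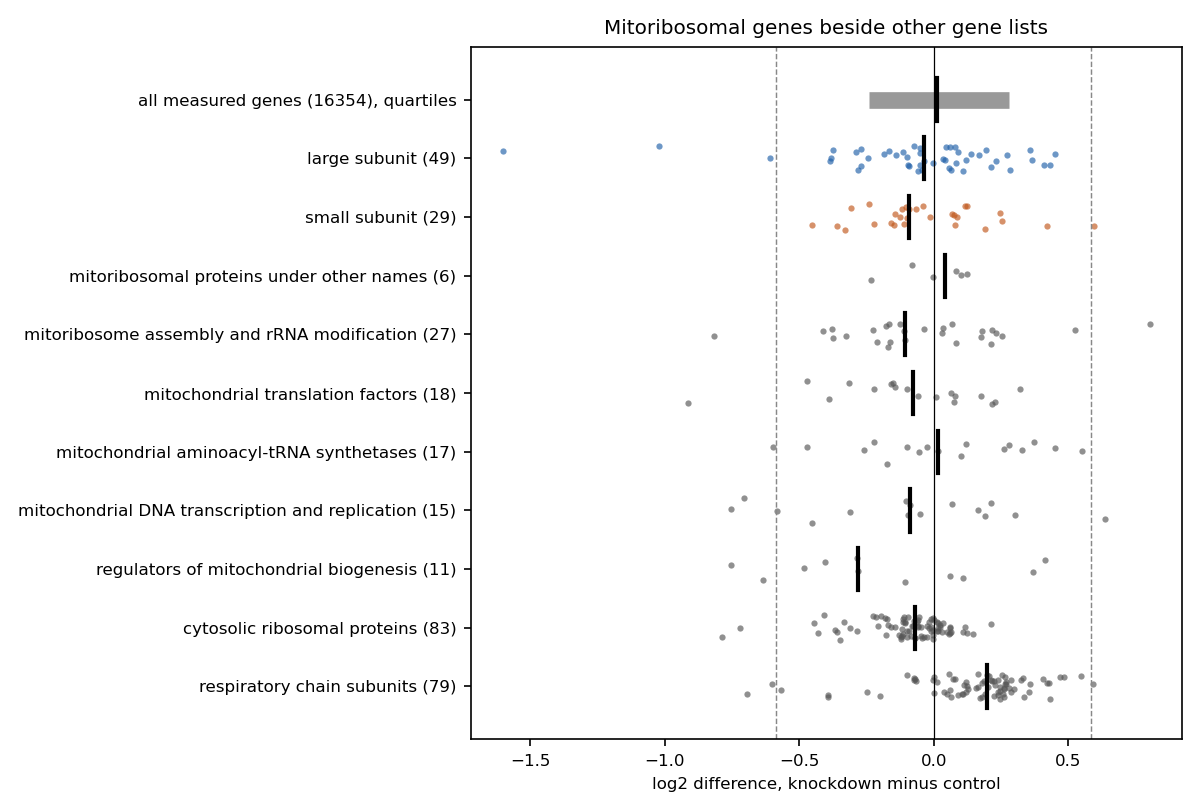
Log2 difference (knockdown minus control, horizontal axis) of the measured genes of each list, with 1 point per gene, a black bar at the list's median and the number of genes in parentheses. The grey bar spans the quartiles of all 16354 measured genes, from -0.24 to 0.28, and dashed lines mark 1.5-fold. Medians of both subunits lie near 0 (-0.04 and -0.09), and that of the respiratory chain lies at 0.20.

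Promoters of the mitoribosomal genes were read from the RefSeq promoter table of build GRCm38.p6, which matched 69 of the 78 genes (43 large, 26 small) by symbol. Each promoter runs from 250 bases before to 50 bases after the start. Motifs were searched on both strands: CATGCGC (a form of the core of the NRF1 site), CCGGAAG (an ETS site as GABP binds), AAGATGG (part of the YY1 site) and TTCNNNGAA (the STAT site). No matches of 2 motifs overlapped. The windows below show the 150 bases before the start for the 2 genes past 2-fold and, for contrast, for Mrpl22, a gene at -0.04 with 2 motifs, whose matches are in capitals (CCGGAAG, and GCGCATG for CATGCGC on the other strand).
Mrpl44, chr1:79775868-79776017, plus strand: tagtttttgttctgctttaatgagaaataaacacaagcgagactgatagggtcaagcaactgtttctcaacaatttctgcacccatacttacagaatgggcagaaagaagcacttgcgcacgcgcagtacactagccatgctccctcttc
Mrpl1, chr5:96209965-96210114, plus strand: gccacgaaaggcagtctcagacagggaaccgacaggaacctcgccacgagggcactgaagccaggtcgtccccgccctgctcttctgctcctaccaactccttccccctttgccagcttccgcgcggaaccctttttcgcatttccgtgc
Mrpl22, chr11:58171514-58171663, plus strand: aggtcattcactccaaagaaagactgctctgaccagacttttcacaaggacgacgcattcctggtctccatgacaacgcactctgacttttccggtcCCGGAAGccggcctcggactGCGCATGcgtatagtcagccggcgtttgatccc

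The promoters of Mrpl44 and Mrpl1 held none of the 4 motifs as spelled above, as did those of 28 of the 69 genes in all. Only those letters were searched. Other forms of these sites, the NRF1 site included, were not counted, so a promoter without a match may still hold a site. The printed Mrpl44 window holds CACGCGC, a near spelling of the NRF1 letters CATGCGC that was not counted. Mrpl44 is therefore not shown to lack an NRF1 site. The GC content of the printed windows was 44.0% for Mrpl44, 62.0% for Mrpl1 and 55.3% for Mrpl22. The ETS letters were in the promoters of 26 genes (37.7%), against 9.93% of all 27025 genes in the table and 17.5% of the 11966 genes that were also measured here. YY1 letters were in 13 (18.8%), against 7.28% and 8.05%, and NRF1 letters in 8 (11.6%), against 4.41% and 7.10%. STAT letters were in 6 (8.70%), against 9.55% and 8.49%, and these were Mrpl30, Mrpl34, Mrpl42, Mrpl50, Mrps22 and Mrps25. The median difference was -0.03 for the 26 genes with ETS letters and -0.06 for the others, -0.07 and -0.05 with and without NRF1 letters, and -0.02 and -0.05 with and without YY1 letters. Mrpl37, at -0.61, is among the genes with YY1 letters. For the 6 genes with STAT letters it was -0.15, with a range from -0.33 to 0.23, and for the others -0.02. A match is a description of letters in this window and no evidence of binding.

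Some mitoribosomal genes start back to back with another gene. The share of all genes that do so was not counted, so the number below is not shown to be particular to this family. Of the 69 genes, 26 had a gene on the opposite strand starting within 1000 bases upstream, at a median distance of 129.5 bases. Both genes were measured in 24 distinct pairs, of which 15 had the same sign, and Pearson's r across these pairs, which share both arrays, was -0.03. The size of the difference had a median of 0.12 for the mitoribosomal genes and 0.28 for their partners. The quartiles of all measured genes were -0.24 and 0.28, so the partners' spread was near that of genes in general. Neither Mrpl44 nor Mrpl1 had such a partner.

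The stretches between the starts are shown for 2 pairs. Mrpl37 and Cyb5rl were the pair with the largest contrast, and Mrps11 and Mrpl46 join a gene of each subunit. Both are printed in the direction of the first gene, and neither stretch holds a match to the 4 motifs.
Mrpl37 and Cyb5rl, chr4:107066867-107066994, minus strand: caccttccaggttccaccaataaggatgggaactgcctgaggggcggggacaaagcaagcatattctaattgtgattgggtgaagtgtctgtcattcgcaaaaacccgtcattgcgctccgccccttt
Mrps11 and Mrpl46, chr7:78783089-78783130, plus strand: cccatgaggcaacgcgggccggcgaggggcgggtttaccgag

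Across the 128 bases of the first stretch, Mrpl37 was at -0.61 and the reductase gene Cyb5rl (168 and 263) at 0.53. Across the 42 bases of the second, Mrps11 (1420 and 1282) was at -0.15 and Mrpl46 (2525 and 2838) at 0.17, both within the spread between probes. Partners past 1.5-fold were Mitd1 (444 and 685), at 0.62 opposite Mrpl30 at -0.28, and Zfp189 (327 and 216), at -0.60 opposite Mrpl50 at -0.12. Some partners also serve mitochondria: Mrps12 and the synthetase gene Sars2 were both at 0.12, Mrpl47 and the complex I gene Ndufb5 at 0.21 and 0.26 (but Mrpl47 at -0.08 with its bright probe), and Mrpl43 and the helicase gene Twnk at 0.36 and -0.10.

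**Figure D4:**
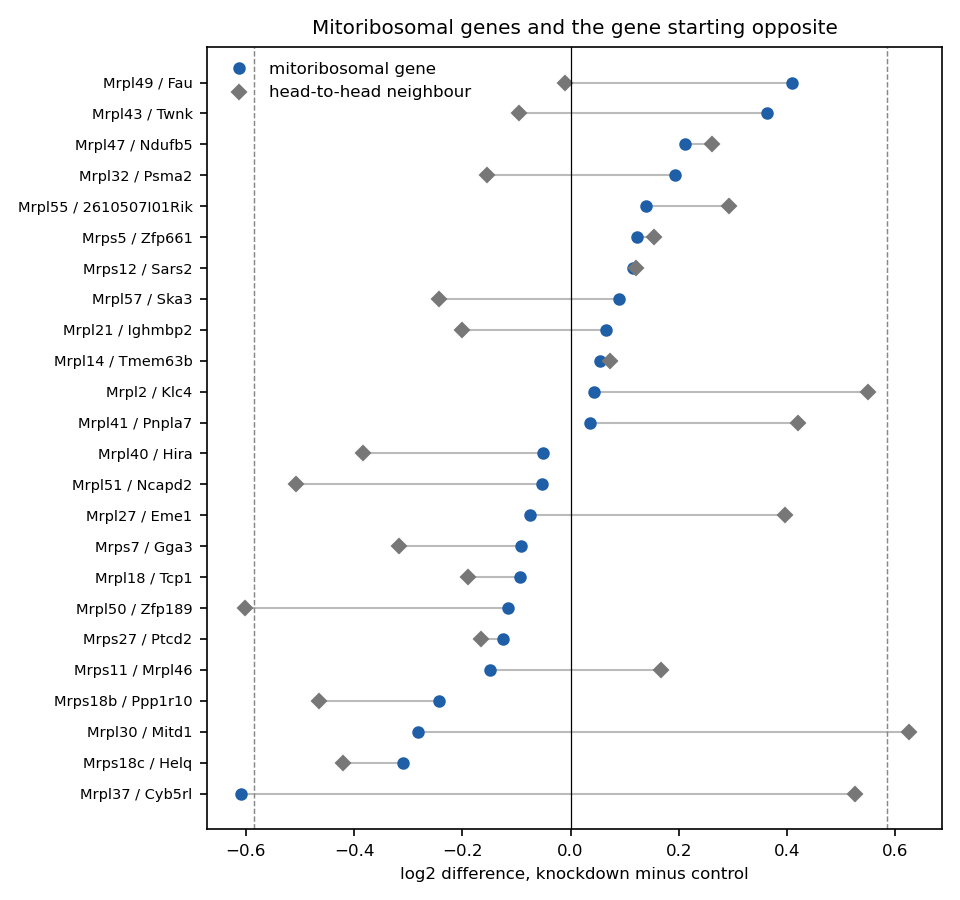
Log2 difference (knockdown minus control, horizontal axis) of mitoribosomal genes (blue circles) and of the gene starting head to head within 1000 bases (grey diamonds), with 1 line for each of 24 pairs; Mrpl46 is drawn as the partner of Mrps11. Dashed lines mark 1.5-fold. Partners spread more widely than the mitoribosomal genes, and about as widely as all measured genes (quartiles -0.24 and 0.28). The widest pair is Mrpl37 at -0.61 with Cyb5rl at 0.53.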

How the data were processed

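Per the file headers, the authors read each array with Feature Extraction 12.1.0.3 (Agilent; protocol GE1_1200_Jun14). The deposited intensity used is the processed signal that this software wrote; its background settings and any scaling between arrays are not given in the sources used here. The deposited flags (other values, 0 or 1) mark spots well above background, saturated (0 spots) or outlying. The authors' deposited table holds log2 values, which matched log2 processed signals less a constant (8.94 on each array) for 100% of the 56294 probes with 1 spot, at a tolerance of 0.001. Its column medians were -3.86 and -3.85.

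Outlier spots were left out (112 on the control and 94 on the knockdown array of 59305 non-control spots each), signals under 1 were set to 1, and log2 values were averaged over spots. Each array's 75th percentile (signals of 493.2 and 493.6) was subtracted. A gene's value is the mean over probes that both arrays detected well above background (59.5% of probes in control, 58.6% in knockdown). Genes were named by the symbols of the authors' table. With 1 array per group, size (1.5-fold and 2-fold) replaced a test, and the number of arrays limits the precision. Every member may be named; of other lists, those past 1.5-fold and the extremes. A few further genes of those lists, named for their role, and the structural regions that order the members, were chosen after their values were seen. The members and lists were chosen with earlier results of these data known. Alternatives were normexp (limma 3.58.1, offset 50; on the median signal, as the planned mean signal was not used here), median and quantile scaling, the authors' log2 table, other choices of probes and rows, and other assignments to subunits. The code was checked on simulated data, made from the control array with planted differences larger than 1.5-fold. That check covers the code and not the reliability of calls from 1 array per group. Python 3.11.15 was used.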

Additional observations from a re-analysis of the deposited data

How the results depend on the processing

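Under 11 alternatives the large-subunit median ranged from -0.05 to 0.0, the small-subunit median from -0.10 to -0.03 and their difference from -0.0027 (brightest probe per gene) to 0.09. Past 1.5-fold were 2 genes in place of 4 without the last 64 rows, which hold the only probes of the other 2, and past 2-fold was 1 gene in place of 2 with normexp on the median signal, which put Mrpl1 at -0.93. Over 9 of these alternatives Mrpl44 ranged from -1.63 to -1.41 and Mrpl1 from -1.03 to -0.93. Of 692 values of single members, 2 moved by more than the spread between probes, both of Mrps14 (0.30 when dim probes were dropped or its brightest probe was taken), and 1, of Mrps34, fell short of 1.5-fold. Mterf4 changed sign, to -0.0059, when restricted to brighter probes, to RefSeq mRNA probes or to its brightest probe. With normexp Nrf1 was at -0.57, Hars2 at -0.42 and Primpol at 0.28, each short of 1.5-fold. Of 72 medians of the other lists 10 moved, in 5 of 8 lists. Among these the translation factors were at 0.07 over brighter probes, and the genes of mitochondrial DNA at 0.02 without the filter on dim probes. Without that filter the median of all genes was 0.10. No paired analysis was possible because each group has 1 array.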

Other observations

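A probe without a gene symbol, described in the authors' table as a pseudogene of Mrpl48, was well above background on both arrays, with signals of 744 and 531 and a difference of -0.49 ± 0.20. Mrpl48 itself was at -0.38. The pseudogene probe lies in the rows before the last 64, and whether it also binds Mrpl48 RNA was not tested.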
